A study of Homo sapiens with 12 samples.

Results

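Cytosolic ribosomal proteins are the protein components of the 40S and 60S subunits of the ribosome, and they were examined here at the RNA level in 2 human colorectal cancer cell lines grown with or without lactate. Members were taken from the gene symbols of the count table: RPL or RPS followed by a number and, where present, the letter A, X or L, together with RPLP0, RPLP1, RPLP2 and RPSA. Pseudogene symbols were left out. The rule gave 81 of the 54261 symbols, which are 43 proteins of the 60S subunit, 31 of the 40S subunit, the 3 proteins of the P stalk and 4 paralogs (RPL3L, RPL10L, RPL39L and RPS27L). Of these, 78 had enough counts to be tested, and RPL3L, RPL10L and RPS18 did not.

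The 4 groups were SW480 without lactate, SW480 with lactate, DLD1 without lactate and DLD1 with lactate, with 3 RNA sequencing libraries in each. Both are established lines, and the libraries without lactate are called controls. The labels give no lactate dose, form or duration. The series describes the libraries as biological replicates and says nothing further of separate cultures, so p-values measure the spread between these libraries, which may in part be technical.

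As background, a ribosome carries a single copy of most of these proteins, and their mRNAs are among the most abundant of a growing cell. Most of these mRNAs begin with a 5′ terminal oligopyrimidine (TOP) tract, a C followed by a run of pyrimidines, through which mTORC1 and the RNA-binding protein LARP1 control their translation. RNA levels alone do not show that control. A few members do a second job: RPL5 and RPL11 join 5S rRNA in a particle that inhibits MDM2, and RPS6 is the substrate of the S6 kinases.

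The start sites of members were inspected for this tract, since it is the sequence feature the family is known for and the promoters of the members that the results turn on can be compared by it. RefSeq start sites (GRCh38.p14) were at hand for 64 members. The run sought was a C followed by at least 4 further C or T bases, beginning within 5 bases of an annotated start. On the strand that reads as the RNA, it was found in 53 of 64 members (82.8%), against 25.2% of 27305 genes searched the same way. Runs were 5 to 22 bases long with a median of 10. Each line gives 20 bases before the start and 15 from the start on, 5′ to 3′, with the run in capitals. The first 3 encode the P stalk and the next 2 a 40S protein and its paralog. Between controls, the next 3 were higher in DLD1 than in SW480 and the last 2 lower. The call for RPL21 was lost under several alternatives, and with lactate its mean was 15.4 CPM in DLD1 and 20.2 CPM in SW480.
RPLP0, chr12:120201097-120201131, minus strand: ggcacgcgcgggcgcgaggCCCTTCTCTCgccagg
RPLP1, chr15:69452798-69452832, plus strand: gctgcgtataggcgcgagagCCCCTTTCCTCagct
RPLP2, chr11:809947-809981, plus strand: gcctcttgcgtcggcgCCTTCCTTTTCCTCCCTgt
RPS27, chr1:153990742-153990776, plus strand: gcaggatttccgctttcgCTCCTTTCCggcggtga
RPS27L, chr15:63157463-63157497, minus strand: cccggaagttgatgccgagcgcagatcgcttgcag
RPL24, chr3:101686704-101686738, minus strand: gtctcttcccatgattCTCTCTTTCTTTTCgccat
RPL27A, chr11:8682772-8682806, plus strand: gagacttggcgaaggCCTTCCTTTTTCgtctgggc
RPL21, chr13:27251538-27251572, plus strand: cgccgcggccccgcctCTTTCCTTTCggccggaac
RPL9, chr4:39458908-39458942, minus strand: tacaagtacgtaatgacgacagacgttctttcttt
RPS4X, chrX:72277234-72277268, minus strand: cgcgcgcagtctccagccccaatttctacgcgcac
The last 2 and RPS27L hold no such run beginning within 5 bases of the annotated start, and nor do RPL10L, RPL15, RPL17, RPL27, RPL6, RPS15, RPS26 and RPS29. In the window of RPL9, a C followed by pyrimidines begins just beyond that distance. The sequences are examples and show no contrast between the directions: RPL10, RPL26, RPL38, RPL39, RPS23 and RPS24, lower in DLD1, hold runs of 7 to 22 bases, and RPS26, higher in DLD1, holds none. The 6 letters CGGAAG, in either orientation, stood in the 300 bases around a start (250 before, 50 after) in 64.1% of members and 22.6% of all genes. The letters TATAAA, in either orientation, stood in 9.38% of members and 14% of all genes.

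Library totals ran from 12302311 to 22662063 counts. Of the epithelial and intestinal markers, EPCAM was at 656 to 716 CPM (counts scaled to a common library total) in the DLD1 libraries and at 0.356 to 1.14 CPM in the libraries labelled SW480. CDH1 (637 to 911 against 1.19 to 1.54 CPM) and CDX2 (94.8 to 183 against 0 to 0.289 CPM) followed the same order, while KRT8 was at or above 825 CPM in all 12 libraries and vimentin (VIM) was at 1431 to 1714 CPM in SW480 and at most 2.76 CPM in DLD1. EPCAM, CDH1 and CDX2 were thus near 0 in the libraries labelled SW480, which goes against the labelled colorectal epithelium and leaves the identity of that line in doubt, so each comparison of DLD1 with SW480 is one with libraries so labelled. Of the markers of other cell types, PTPRC, CD3E, PECAM1 and HBB were below 0.4 CPM everywhere, and the endothelial VWF was at 1.41 to 4.07 CPM in DLD1 and below 0.5 CPM in SW480. In SW480, the fibroblast collagen COL1A1 rose with lactate from a mean of 21.1 to 48.7 CPM (edgeR, adjusted p = 6.52e-05) and the lysosomal macrophage marker CD68 from 39.6 to 95.4 CPM (edgeR, adjusted p = 0.00218), while COL3A1 had means of 143 and 127 CPM (edgeR, adjusted p = 0.365). Their part in the members' values was not tested. Libraries differed from their groups across the members. In DLD1 control 2, 61 of the 78 tested members lay below the mean of the other 2 DLD1 controls, with a median log2 difference of -0.43, the furthest of the 12 libraries. In DLD1 lactate 1, 77 of 78 lay below (median -0.19), in SW480 lactate 3, 65 of 78 (median -0.14), and in DLD1 control 1, 5 of 78 (median 0.32).

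Ribosomal protein genes took a similar part of the RNA in the 4 groups. They held 6.32, 6.39 and 6.04% of all counts in the SW480 controls and 6.16, 6.18 and 5.66% with lactate. In DLD1 they held 6.38, 4.54 and 6.00% in the controls and 5.17, 6.01 and 5.67% with lactate. The groups overlapped within each line, and in bulk RNA fewer cells with a transcript and less of it per cell cannot be told apart. The lowest of the 12 values was that of DLD1 control 2. Group means were 6.25% ± 0.186 (SD, n = 3) and 6.00% ± 0.294 (SD, n = 3) in SW480, and 5.64% ± 0.971 (SD, n = 3) and 5.62% ± 0.423 (SD, n = 3) in DLD1, control first. Per base of transcript, the highest members averaged over all libraries were RPS2 with 2505 RPKM (counts per kilobase of transcript, scaled to library depth), RPS24 with 2155 RPKM and RPL12 with 1855 RPKM. RPS2 lines the mRNA entry channel of the 40S subunit and RPL12 lies at the base of the stalk.

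**Figure D1:**
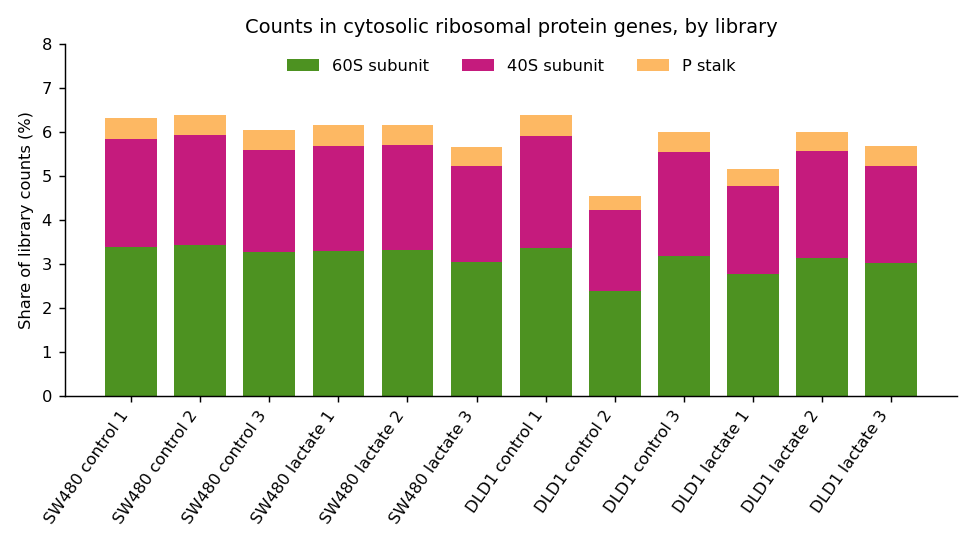
Share of all counts of each library (%, vertical axis) that fell on ribosomal protein genes, split into 60S, 40S and P stalk members, for the 12 libraries; the 4 paralogs are not drawn. With the paralogs the shares lie between 4.54 and 6.39%, and DLD1 control 2 is lowest.

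Few ribosomal protein genes passed the test for lactate in SW480, and which ones passed depended on the fit. Of 78 members tested, 0 rose and 1, RPL23A, fell (edgeR quasi-likelihood test, Benjamini-Hochberg adjusted p under 0.05 over 17572 genes), where 12.4% of all tested genes were called, 6.83% up and 5.59% down. At an unadjusted p under 0.05, 2 members were higher and 2 lower, where 27.3% of all genes passed. The median log2 fold change of the members was -0.02, beside -0.01 over all genes tested, and the values ran from -1.16 to 0.36. The 95% interval lay within 0.5 on the log2 scale of no change for 57 of 78 members and within 1 for 76. In CPM, 16 members had every lactate library on 1 side of every control, 2 higher and 14 lower with lactate, where 40.8% of all tested genes did not overlap (18.9% higher, 21.9% lower). CPM divides by the library total alone, while fold changes also carry the between-library scaling. With trends along GC content and transcript length removed, 7 members were called up and 1 down. With each line fitted alone 3 were called up and 2 down, and with pseudogene counts added 0. Without SW480 lactate 3 the count was 0 and the median 0.05. The 12.4% is the share of all genes in the main fit, and the shares in these other fits are not given here.

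RPL23A, a protein at the exit of the 60S peptide tunnel where the signal recognition particle docks (chromosome 17, 28719985 to 28724359), was at 30.9, 30.8 and 29 CPM in the SW480 controls. With lactate it was at 23.5, 22.3 and 20.7 CPM. All 3 lactate libraries were lower than all 3 controls, and the log2 fold change was -0.42 ± 0.10 (SE; edgeR, adjusted p = 0.0175). The call was lost without SW480 control 1 or 2 or without lactate 2 or 3, with an adjusted p of at most 0.0969, and with no filter on low counts. The table also holds 94 symbols of RPL23A pseudogenes, whose summed mean level was 27.9 CPM in the controls and 33.9 CPM with lactate. With these counts added to the gene the log2 fold change was -0.03 (edgeR, adjusted p = 0.875), so the change of RPL23A itself is uncertain.

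The members with the next smallest p-values did not pass in the fit of all 12 libraries. RPS10, a 40S protein that ZNF598 ubiquitinates on stalled ribosomes, was at 15, 11.1 and 5.73 CPM in the SW480 controls. With lactate it was at 5.93, 2.95 and 5.20 CPM, which overlaps the lowest control (log2 fold change -1.16 ± 0.44 SE, edgeR adjusted p = 0.106), and it was called with no filter on low counts (edgeR, adjusted p = 2.2e-06). RPL21, a 60S protein, had means of 16.0 and 20.2 CPM, a log2 difference of 0.36 ± 0.15 (SE; edgeR, adjusted p = 0.136). It was called with each line alone (adjusted p = 0.0281), with the GC and length trends removed (adjusted p = 0.0275) and without DLD1 control 2 (adjusted p = 0.0453), all in edgeR.

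In DLD1, 0 of 78 members passed the test for lactate against control, where 0.381% of all tested genes did (0.336% up, 0.0455% down). At an unadjusted p under 0.05, 12 members were lower with lactate and 0 higher, where 18.5% of all genes passed. DESeq2 called 2 members, RPL21 and RPL41, both lower, and edgeR with no filter called RPL41. The members' median log2 fold change was -0.05, beside 0.02 over all genes, and the values ran from -0.53 to 0.36. The 95% interval lay within 0.5 of no change for 56 of the 76 members that had a standard error, and within 1 for all 76. In CPM, 8 members had every lactate library below every control and 0 had them all above (RPL21, RPL23A, RPL36A, RPL6, RPL9, RPS25, RPS7 and RPSA), where 18.8% of all tested genes did not overlap (10.7% higher, 8.06% lower).

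These DLD1 values depended on single libraries. Without DLD1 control 3, 8 members passed, all lower with lactate (RPL14, RPL21, RPL41, RPL6, RPL7, RPS27, RPS27A and RPS3A). In that fit the lists of related genes described below rose too, to 10 quality control genes, 9 regulators and 8 chaperones and importers. The share of all genes called in it is not given here, so the 8 cannot be read as particular to the members. Without DLD1 control 2 the count was 0 and the median log2 fold change -0.18. Without DLD1 lactate 1 the count was 0 and the median 0.00. The libraries differed along base composition. Across the 78 members, the deviation from the other 2 DLD1 controls had a Spearman correlation with transcript GC content of -0.54 in control 2, 0.66 in control 3 and 0.12 in control 1. The log2 fold changes of lactate in DLD1 had a correlation of 0.47 with GC content across the same members, and those in SW480 one of 0.14. Members within a library share its depth and preparation, so these correlations only describe the libraries. The part of base composition in the fold changes was not tested.

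**Figure D2:**
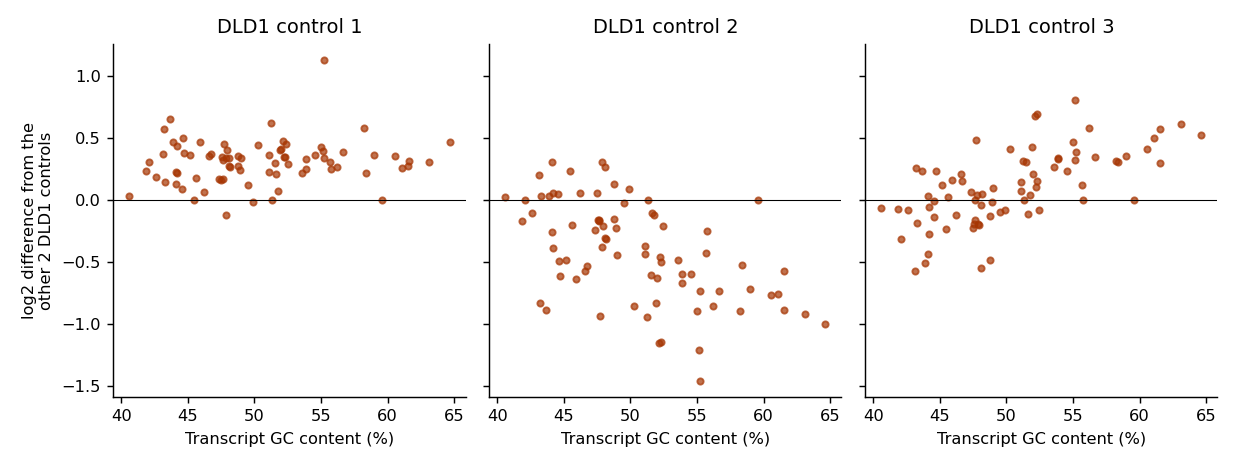
Each point is 1 tested ribosomal protein gene; the horizontal axis is the GC content of its transcript (%) and the vertical axis its log2 difference in the named DLD1 control from the mean of the other 2. Values are lower at higher GC content in control 2, higher at higher GC content in control 3 and lie mostly above 0 in control 1, while RPL39L and RPS9, with no count in these libraries, lie at 0.

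RPL21 (chromosome 13, 27251558 to 27256568) was at 20.1, 24.4 and 19.8 CPM in the DLD1 controls. With lactate it was at 13.1, 15.7 and 17.3 CPM, below every control, a log2 difference of -0.50 ± 0.15 (SE; edgeR, adjusted p = 0.146). RPL41, the smallest ribosomal protein and a bridge between the subunits, was at 124, 122.9 and 86.0 CPM in the controls. With lactate it was at 63.7, 75.6 and 95.5 CPM, so that the highest lactate library overlapped the lowest control (log2 difference -0.53 ± 0.16 SE, edgeR adjusted p = 0.149). In SW480 the same gene had means of 96.6 and 75.7 CPM without overlap (-0.33, edgeR adjusted p = 0.201), and it was called lower there with each line alone (-0.32, edgeR adjusted p = 0.00397). The pseudogene RPL41P3 had means of 114 and 132 CPM in SW480 and 252 and 187 CPM in DLD1, control first. The values of RPL41 thus depend on how its reads were assigned. RPL6, a 60S protein, had means of 926 and 772 CPM (log2 difference -0.29 ± 0.10 SE, edgeR adjusted p = 0.177). RPS27A, made as a fusion with ubiquitin, had means of 930 and 747 CPM (log2 difference -0.34 ± 0.12 SE, edgeR adjusted p = 0.178).

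**Figure D3:**
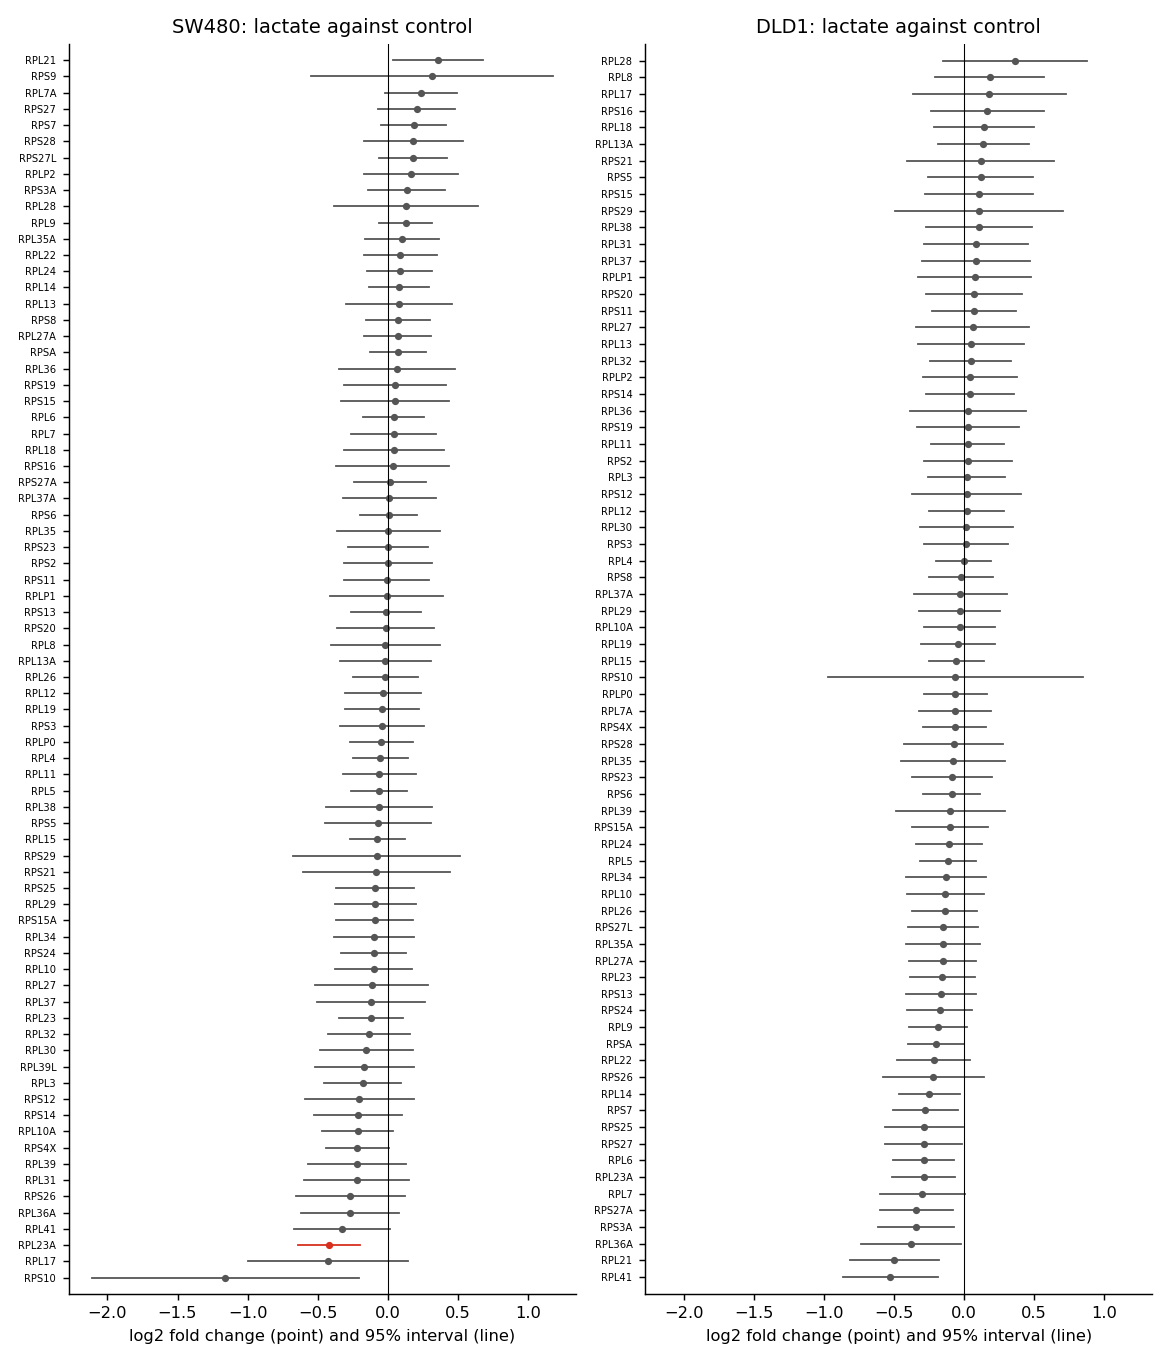
Log2 fold change of lactate against control (horizontal axis) for each tested ribosomal protein gene with a standard error, less 2 that are not reported here, sorted by value, in SW480 (left) and DLD1 (right); points are estimates, lines 95% intervals. RPL23A in SW480, in red, is the 1 member that passed the test, and RPS10 has the widest interval there.

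The difference between the 2 lactate effects was tested directly as an interaction. It was called for 0 of 78 members, where 0.728% of all tested genes were called (0.324% with the higher fold change in DLD1, 0.404% with the lower), and 7 members had an unadjusted p under 0.05, all with the lower fold change in DLD1, where 16.8% of all genes passed. RPL21 came closest: the fold change in DLD1 was lower than that in SW480 by a log2 difference of -0.86 ± 0.21 (SE; edgeR, adjusted p = 0.0706). The call for RPL21 appeared with DESeq2 (adjusted p = 0.00713), with the replicate number as a block (adjusted p = 0.0457), with no filter and with trends along GC content and length removed. The 136 pseudogene symbols of RPL21 had summed means of 129 and 143 CPM in SW480 and 197 and 143 CPM in DLD1, control first, and with their counts added the difference was -0.67 (edgeR, adjusted p = 0.112). The next smallest p-values were those of the 40S proteins RPS7 (-0.46, edgeR adjusted p = 0.159), RPS27 (-0.49, edgeR adjusted p = 0.201) and RPS3A (-0.47, edgeR adjusted p = 0.212). RPS7 was called with DESeq2 (adjusted p = 0.0339), and in edgeR with the GC and length trends removed (-0.64, adjusted p = 0.00693) and without DLD1 control 2 (adjusted p = 0.0317). Without DLD1 control 3 the count was 4, without DLD1 control 2 it was 2, and without SW480 lactate 1 it was 1.

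Members described for their roles did not pass for lactate in either line in the main test. RPLP0, the scaffold of the stalk that recruits elongation factors, had log2 differences of -0.05 ± 0.10 (SE) in SW480 and -0.06 ± 0.10 (SE) in DLD1. RPLP1 and RPLP2, the acidic proteins that pair on it, had differences between -0.01 and 0.17 in the 2 lines. With the GC and length trends removed, RPLP2 was called higher with lactate in SW480 (0.23, edgeR adjusted p = 0.0132). In that fit RPLP2 was also called for the difference between the lactate effects (-0.41, edgeR adjusted p = 0.0105). RPL5 and RPL11, the partners of 5S rRNA, had differences between -0.11 and 0.03. RPS6 was at 1390 CPM ± 61.7 (SD, n = 3) in the SW480 controls and 1375 CPM ± 51.1 (SD, n = 3) with lactate, a difference of 0.01 (95% interval -0.19 to 0.21), and the interval in DLD1 was -0.29 to 0.11. RPS19, a 40S protein mutated in Diamond-Blackfan anemia, had differences of 0.05 (95% interval -0.31 to 0.41) and 0.03 (95% interval -0.33 to 0.39). RPSA, which is also known as the laminin receptor, had differences of 0.07 and -0.20 (edgeR, adjusted p = 0.676 and 0.265).

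Without lactate, fewer ribosomal protein genes differed between the lines, as a share, than genes in general, and most that differed were lower in DLD1. Of 78 members, 42 (53.8%) passed the test between DLD1 and SW480 controls, where 70.8% of all tested genes did (72.9% at an unadjusted p under 0.05). Of the 42, 9 were higher in DLD1 and 33 lower, where 33.6% of all genes were higher and 37.3% lower. The median log2 difference was -0.17, beside -0.05 over all genes. Control libraries did not overlap in CPM for 14 members higher and 32 lower in DLD1, where 70.6% of all genes did not overlap (35.1% higher, 35.5% lower). By role, 4 members of the 60S subunit were higher and 19 lower of 43, 4 of the 40S subunit were higher and 10 lower of 30, and both tested paralogs were lower. The split moved when trends along GC content and length were removed and when 1 library was left out. With each library's trend along GC content and transcript length removed, 26 members were higher and 23 lower with a median of 0.015. Without DLD1 control 2, 18 were higher and 25 lower. The shares and the median over all genes given above are those of the main fit.

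RPL9, a 60S protein (chromosome 4, 39454124 to 39458922), differed most among members with counts in both lines. It was at 361, 408 and 419 CPM in the SW480 controls and at 18.7, 18.6 and 18.2 CPM in the DLD1 controls. With lactate the SW480 libraries were at 416, 440 and 420 CPM and the DLD1 libraries at 16.2, 16.3 and 17.1 CPM. All 6 DLD1 libraries thus lay below all 6 SW480 libraries, and the log2 difference between controls was -4.49 ± 0.10 (SE; edgeR, adjusted p = 2.68e-14). Counts of its 31 pseudogene symbols were alike in the 2 lines (20.7 and 21.1 CPM in the controls), and with them added the difference was -3.47 (edgeR, adjusted p = 1.29e-12).

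RPL39L, a paralog of RPL39 known from the testis (chromosome 3, 187120948 to 187139496), was at 11.8, 10.6 and 12 CPM in the SW480 controls and had no count in any of the 6 DLD1 libraries. It was at least 57.0-fold lower in the DLD1 controls, taking a floor of 3 counts in the shallowest of them. RPL39 itself, which lines the peptide tunnel, had group means of 10.1 CPM in SW480 controls and 3.85 CPM in DLD1 controls (log2 difference -1.45 ± 0.17 SE, edgeR adjusted p = 2.69e-06). RPS9, a 40S protein, was at 0.834 CPM in the SW480 controls and had no count in DLD1, at least 4.15-fold lower by the same floor. With its pseudogene counts added the log2 difference of RPS9 was -0.59 (edgeR, adjusted p = 0.0494), so its difference is uncertain. Both bounds lie below the members' median of -0.17, so placing RPL39L and RPS9 at them could not move that median.

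RPS27L, the paralog of the zinc finger protein RPS27 and a p53 target, was at 86.5, 90.7 and 81.2 CPM in the SW480 controls. In the DLD1 controls it was at 40, 37.9 and 35.1 CPM, below every SW480 library (log2 difference -1.26 ± 0.12 SE, edgeR adjusted p = 1.43e-07). RPS27 itself had means of 464 and 476 CPM in the 2 sets of controls (adjusted p = 0.853), so the counts of RPS27L were 18.7% ± 2.62 (SD, n = 3) of those of RPS27 in SW480 and 8.04% ± 1.03 (SD, n = 3) in DLD1. With lactate the shares were 18.2% ± 1.38 (SD, n = 3) and 8.69% ± 0.897 (SD, n = 3). The pseudogene RPS27P3 was at 272 CPM in the SW480 controls and 97.7 CPM in the DLD1 controls, and with pseudogene counts added RPS27 was lower in DLD1 (-0.46, edgeR adjusted p = 0.00473), so these shares depend on how its reads were assigned.

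Other members lower in DLD1 by smallest p were RPS4X (-0.82), RPS24 (-0.80), RPL10 (-0.81), RPL26 (-0.63), RPL38 (-1.03), RPS23 (-0.77) and RPL37 (-1.01), with edgeR adjusted p from 6.46e-06 to 0.000157. RPS4X, encoded on the X chromosome, was at 1851, 1912 and 1703 CPM in the SW480 controls and at 1157, 986 and 1094 CPM in the DLD1 controls, with no overlap. RPS23 carries the decoding centre's hydroxylated proline and RPL10 completes the 60S subunit near the P site. The call for RPL37 was lost with the trends along GC content and transcript length removed together (edgeR, adjusted p of up to 0.249). All 4 tested members on the X chromosome were lower in DLD1, where 67.9% of all tested X genes were lower with a median of -0.78. On chromosome 17, 5 of 6 members were lower (39.9% of all its genes), and on chromosome 5, 3 of 3 (54.7%).

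Among the 9 members higher in DLD1, the 60S protein RPL27A had the largest difference in the main test, with RPL24 and RPS26 close to it. The order changed with the GC and length trends removed (RPL24 1.02, RPS26 0.93, RPL27A 0.76). RPL27A was at 861, 855 and 778 CPM in the SW480 controls and at 1647, 1218 and 1409 CPM in the DLD1 controls, a log2 difference of 0.71 ± 0.11 (SE; edgeR, adjusted p = 4.96e-05). RPL24, which forms a bridge between the subunits, was at 455, 451 and 463 CPM against 899, 640 and 796 CPM (0.70 ± 0.11 SE, edgeR adjusted p = 4.13e-05). In both genes every DLD1 control lay above every SW480 control. RPL7 (0.65), RPS26 (0.70), RPLP2 (0.55) and RPS2 (0.49) were also higher, and these 6 calls held under every alternative setting and with any library left out. RPS3A (0.39), RPSA (0.22) and RPL21 (0.35) passed in the main test and lost the call under 2 or more alternatives each.

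The P stalk genes differed in opposite directions between the lines, with the calls for the lower 2 depending on the fit. RPLP2 was at 616, 621 and 576 CPM in the SW480 controls and at 1053, 625 and 1102 CPM in the DLD1 controls, where control 2 lay close to SW480 (log2 difference 0.55 ± 0.16 SE, edgeR adjusted p = 0.00569). RPLP0 was lower in DLD1 with means of 2404 and 2118 CPM (-0.25 ± 0.10 SE, edgeR adjusted p = 0.0464). RPLP1 was lower with means of 1607 and 1160 CPM (-0.54 ± 0.19 SE, edgeR adjusted p = 0.0191), and its DLD1 control 2 value of 713 CPM was the lowest. RPS19 was lower as well, with means of 1024 and 751 CPM (-0.51 ± 0.17 SE, edgeR adjusted p = 0.014), while RPL5, RPL11, RPS6, RPL22 and RPL41 did not pass between the lines. The calls for RPLP0 and RPLP1 were lost with the GC and length trends removed, with the replicate number as a block and without SW480 control 1 or 2. That for RPLP0 was also lost with no filter, with scaling that left the members out, and in 11 of the 12 fits that left out a library. Higher values in DLD1 were called in edgeR for RPL5 (0.46, adjusted p = 2.11e-06) and RPS6 (0.51, adjusted p = 5.8e-06) with those trends removed, and for RPL41 with pseudogene counts added (0.79, adjusted p = 0.000518). RPS6 was also called with DESeq2 (adjusted p = 0.0206) and without DLD1 control 2 (edgeR, adjusted p = 0.0226).

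**Figure D4:**
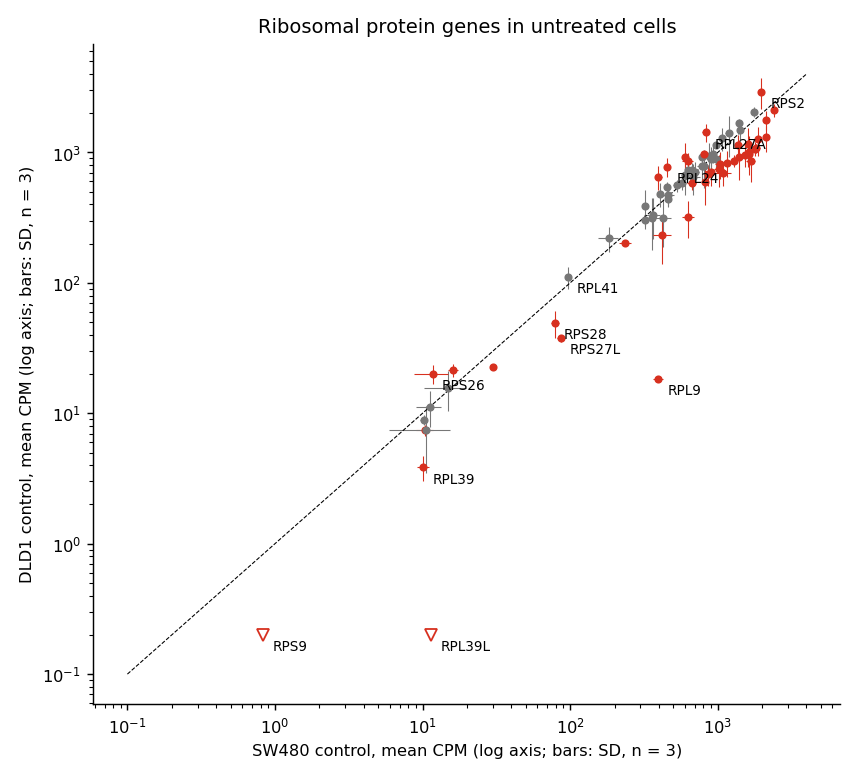
Mean CPM of each ribosomal protein gene in SW480 controls (horizontal, log axis) and DLD1 controls (vertical, log axis), with SD bars (n = 3) and the line of equality; red marks members that passed the test, open triangles members with no count in DLD1, drawn at the floor of 3 counts. Most points lie near the line, with RPL9 at 396 against 18.5 CPM far below it.

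Of 7 tested ribosomal genes and paralogs outside the naming rule, 1 fell with lactate in SW480 and 0 rose. That is 14.3% of the list, beside 12.4% of all genes called and 5.59% called down. RPL22L1, the paralog of RPL22, was at 145, 132 and 136 CPM in the SW480 controls and at 89.2, 78.9 and 80.0 CPM with lactate. The groups did not overlap, and the log2 fold change was -0.71 ± 0.12 (SE; edgeR, adjusted p = 0.00185), a call that held under all 24 alternatives tried. In DLD1 it was at 230, 189 and 196 CPM in the controls and at 135, 177 and 142 CPM with lactate, again without overlap, and did not pass (-0.46 ± 0.12 SE, edgeR adjusted p = 0.117). It was called in DLD1 with no filter, with DESeq2 and without DLD1 control 2 or 3, with adjusted p down to 0.00711. The difference between the lines was 0.25 ± 0.17 (SE; edgeR, adjusted p = 0.463).

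RPL22 itself, a 60S protein that binds RNA outside the ribosome, had means of 463 and 486 CPM in SW480 (0.09, 95% interval -0.17 to 0.35, edgeR adjusted p = 0.684). In DLD1 its means were 442 and 388 CPM (-0.22, 95% interval -0.48 to 0.05, edgeR adjusted p = 0.351). The counts of RPL22L1 as a percent of those of RPL22 went from 29.7 ± 1.56 (SD, n = 3) to 17.1 ± 1.60 (SD, n = 3) in SW480 and from 46.6 ± 3.87 (SD, n = 3) to 39.1 ± 0.372 (SD, n = 3) in DLD1. FAU, which encodes RPS30 as a fusion with a ubiquitin-like protein, and RACK1, a 40S scaffold listed under an older symbol, did not pass for lactate in either line (edgeR, adjusted p from 0.545 to 0.924). RPL36AL had at most 0.775 CPM and was not tested.

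**Figure D5:**
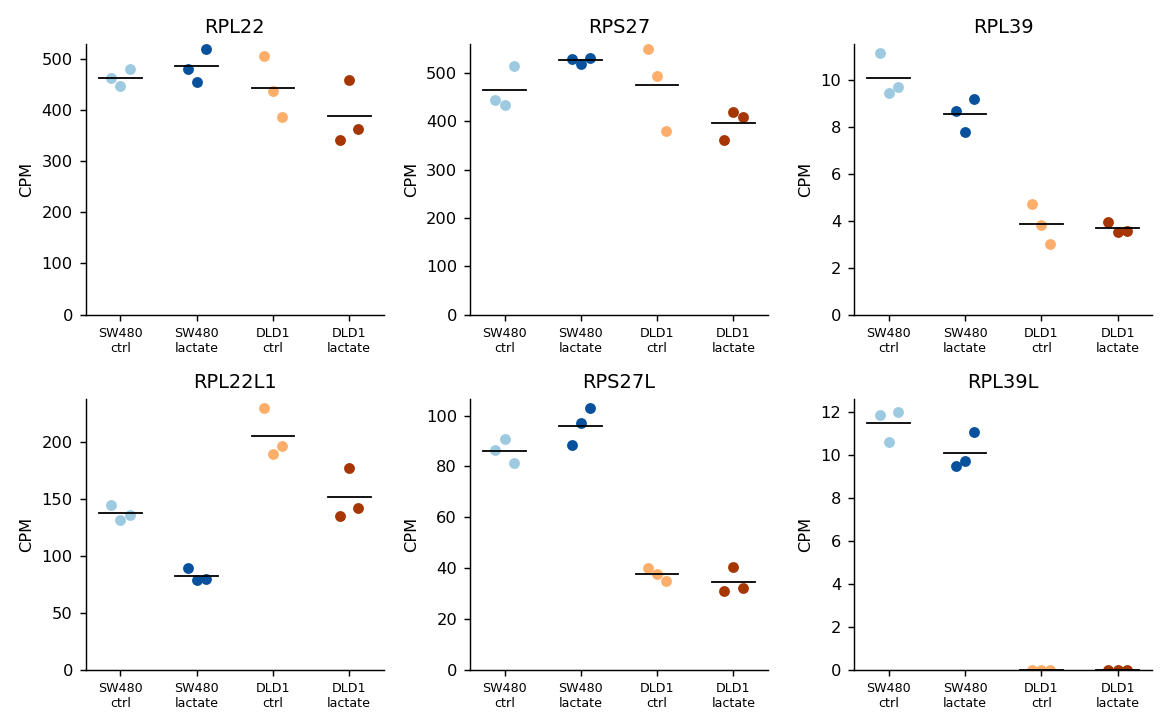
CPM (vertical axes, from 0) of 3 ribosomal protein genes (top) and their paralogs (bottom) in the 12 libraries; points are libraries and bars group means (n = 3). RPL22L1 is lower with lactate in both lines while RPL22 overlaps, RPS27L is lower in DLD1, and RPL39L has no count there.

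Other genes of the pathway were read from the same fit, in which 6.83% of all genes rose and 5.59% fell in SW480. Of 22 translation and TOP mRNA genes, 1 rose in SW480, the initiation helicase EIF4A2 (0.43, edgeR adjusted p = 0.0163), and 1 fell, the nucleolar chaperone NPM1 (-0.37, edgeR adjusted p = 0.0434). Together these are 9.09% of the list, below the 12.4% of all genes, and the list's median was 0.01. The call for EIF4A2 was lost without SW480 control 1, control 3 or lactate 2, and that for NPM1 in 10 of the 12 fits that left out a library. Of 12 hosts of small nucleolar RNAs with TOP starts, 2 fell, which is 16.7% of the list, with a median of -0.01. They were SNHG1 (107 to 68 CPM, -0.64, edgeR adjusted p = 0.00087) and SNHG15 (-0.52, edgeR adjusted p = 0.00833). The call for SNHG15 was lost without SW480 control 1 or lactate 2.

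Of 15 chaperones and importers of ribosomal proteins, 5 fell in SW480 and 0 rose, with a median of -0.27, where 5.59% of all genes fell. They were HEATR3, an importer adaptor of RPL5 (34.8 to 21.5 CPM, -0.67, edgeR adjusted p = 0.00702), RRS1, which helps load the 5S particle (-0.53, adjusted p = 0.00739), LTV1, a 40S assembly factor (-0.53, adjusted p = 0.0191), GRWD1, the chaperone of RPL3 (-0.52, adjusted p = 0.0216), and TSR2, the chaperone of RPS26 (-0.33, adjusted p = 0.0444). The count was 0 without SW480 control 1 or lactate 2 and 8 without DLD1 control 2, and the call for TSR2 was lost in 10 of the 12 fits that left out a library. Of 16 regulators of these mRNAs, 1 rose, the transcription factor MYC (393 to 521 CPM, 0.43, edgeR adjusted p = 0.0242), 6.25% of the list, with a median of 0.00. Of 16 genes of ribosome quality control, 1 rose, ANKZF1, which releases stalled peptides (0.53, edgeR adjusted p = 0.0196), also 6.25%, with a median of 0.01. These MYC and ANKZF1 calls were lost without SW480 control 1, control 3 or lactate 2, and that of MYC also without lactate 3. In DLD1, 0 genes of any of these lists passed, where 0.381% of all genes did, and 0 passed for the difference between the lines (0.728% of all genes). The chaperones and importers nonetheless had a median of -0.31 in DLD1, and their median difference between the lines was -0.02. At an unadjusted p under 0.05 (edgeR), 9 of the 15 were lower with lactate in DLD1 and 0 higher, where 18.5% of all genes passed.

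Between the control lines, 33.6% of all genes were higher in DLD1 and 37.3% lower. The TOP hosts of small nucleolar RNAs were lower in DLD1 in 9 of 12 cases and higher in 0, with a median of -1.55. GAS5 had means of 381 and 67.2 CPM (-2.57, edgeR adjusted p = 1.2e-09) and SNHG5 of 228 and 37.1 CPM (-2.68, edgeR adjusted p = 4.01e-10). The protein-coding TOP list was mixed, with 9 of 22 higher and 6 lower. MYC had means of 393 and 67.4 CPM (-2.61, edgeR adjusted p = 4.63e-11). Of the regulators 8 were higher and 5 lower, of the quality control genes 7 and 4, and of the chaperones and importers 5 and 2. In all, 68.2% of the protein-coding TOP list, 75% of the small nucleolar RNA hosts and 81.2% of the regulators were called, beside 70.8% of all genes. So were 68.8% of the quality control genes and 46.7% of the chaperones and importers.

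Some members were counted at levels far below the rest. The means of 67 members over all libraries lay between 63.6 and 2467 CPM, while 14 lay below 40 CPM, among them RPL17, RPL21, RPL23A, RPL36A, RPL39, RPS10, RPS18, RPS25, RPS26 and RPS9. For 10 of these 14 the summed counts of their pseudogene symbols were higher than their own. RPS18, a 40S protein, had at most 1 count in any library, while RPS18P5 and RPS18P12 averaged 669 and 380 CPM. RPL39 was at 3.02 to 11.1 CPM, while RPL39P3 averaged 425 CPM, and RPL36A at 5.33 to 11.9 CPM, while RPL36AP37 averaged 261 CPM. In all, 77 members had pseudogene symbols in the table, 1921 together, of which 907 had no count. Reads of a gene and of a near-identical processed copy can be assigned to either. Values of members with such copies are therefore uncertain, among the 14 and among the other 67. Of the 14, RPL10L had 0 pseudogene symbols, while RPL29, above 40 CPM, averaged 436 CPM beside 396 CPM in its pseudogene symbols. How shared reads were counted is not given in the sources used here. By RPKM the lowest were RPS18 (0.014), RPL10L (0.043) and RPL3L (0.044), the last known from heart and skeletal muscle.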

How the data were processed

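RNA of 12 libraries was sequenced, 3 in each group of line and treatment. The deposited table holds whole-number counts per gene symbol. Per the submitters' processing notes the authors used HISAT2 and the GRCh38 build. The counter, its treatment of shared reads and the versions were not given in the sources used here. No column of per-sample values was left unused (0). Counts were fitted in edgeR 4.0.16 (R 4.3.3) with filterByExpr, TMM scaling, 1 mean per group and the robust quasi-likelihood test, two-sided, with Benjamini-Hochberg adjustment over 17572 genes, called at 0.05. Intervals are 95%. RPKM, GC content and length used 1 GENCODE 29 transcript a gene, positions and start sites RefSeq. The fit was tested on simulated data. Alternatives were other scalings, filters, DESeq2 1.42.0, limma-voom 3.58.1, a replicate block, each line alone, removal of trends along GC content and length (splines, 5 degrees of freedom), added pseudogene counts and leaving out each library. Members and lists were chosen with earlier results of these data known. Named genes were the called members of each contrast, up to 12 a direction by p, or the 4 smallest p, plus members listed for their roles and, from each list, up to 4 called genes. Some genes of the rule are not reported here. TSR2 lies outside this rule and was named after its values were seen.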

Additional observations from a re-analysis of the deposited data

How the results depend on the processing

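The number of members called for lactate in SW480 was 1, and it became 2 with no filter, 5 with each line alone (3 up, 2 down), 8 with trends along GC content and length removed (7 up, 1 down), 7 with that and the replicate block (6 up, 1 down), and 0 with pseudogene counts added. In DLD1 it was 0, and became 1 with no filter, 2 with DESeq2, and 1 with the trend removed and the block. For the difference it was 0, and became 2 with no filter, 2 with DESeq2, 1 with the replicate block, 4 with the trend removed and 5 with the trend removed and the block. Leaving out each library gave 0 to 3 in SW480, 0 to 8 in DLD1, 0 to 4 for the difference and 30 to 43 between controls (42 with all libraries). Medians of the members then ran from -0.06 to 0.05, -0.18 to 0.05, -0.12 to 0.10 and -0.26 to -0.07 in the same order. The median between controls moved to 0.015 with the trend removed and to 0.016 with the block as well, and the mean share in SW480 controls to 6.58% of nuclear-encoded counts. No fold change of a gene named for its p-value changed sign, while the members' medians crossed 0 as given. Shares of all genes called are given for the main fit only, here and above. Counts under the alternatives are therefore not set against a share of their own fit. The cause of these shifts was not tested.

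The labels do not say whether same-numbered libraries were handled in pairs. Same-numbered control and lactate libraries deviated together with r = 0.102, -0.000225 and 0.173 in SW480 and -0.0708, 0.062 and 0.116 in DLD1. Differently numbered ones had r from -0.227 to 0.133 in SW480 and from -0.119 to 0.0639 in DLD1. With 3 libraries a group, these values cannot decide whether the libraries were paired. With the replicate number as a block the member counts were 1 in SW480, 0 in DLD1, 1 (RPL21) for the difference and 28 between controls (6 higher and 22 lower in DLD1).

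For the pathway lists the same alternatives were added after the data were seen. In SW480 the TOP mRNA count of 2 became 1 with median-of-ratios scaling, TMM without members or the block, 4 with DESeq2 or the trend removed and 5 with each line alone. The next counts, also in SW480, are with each line alone, the trend removed, and the trend removed with the block, in that order. They were 3, 4 and 3 for genes outside the naming rule and 4, 4 and 5 for small nucleolar RNA hosts. For regulators they were 3, 5 and 4 (2 with DESeq2), for chaperones 8, 8 and 8, and for quality control 2, 4 and 4. In DLD1 no list passed 3 with no filter or DESeq2, or 2 with the trend removed with or without the block, and for the difference no list passed 3 under any of these. Between controls the block gave 4 chaperones and 7 quality control genes. Leaving out a library gave 0 to 8 for chaperones, 0 to 5 for TOP mRNAs and at most 3 for the others in SW480. In DLD1 it gave up to 10 (quality control), 9 (regulators), 8 (chaperones) and 6 (TOP mRNAs), each without DLD1 control 3. Between controls it gave 4 to 9 chaperones and 7 to 12 quality control genes.

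With 3 libraries a group, the median standard error of a member's log2 fold change was 0.14 in each line. Counts per symbol do not separate genes from near-identical copies.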
